A study of Homo sapiens with 6 samples.

Results

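The zinc finger genes of the primate-expanded cluster at 19p12 were followed in cultures of U373MG, a human glioblastoma cell line, after exposure to marine-derived tetrahydroisoquinoline alkaloids. The members were chosen by name, with earlier results of these data known. They are 34 ZNF genes that run from ZNF101 to ZNF254 along chromosome 19. The list takes in the edge of the cluster in the neighbouring band, where ZNF101 and ZNF14 may lie. Bands were not given in the sources used, so 19p12 serves below as a short name for the whole list. A member was measured where at least 1 array probe carried its symbol and no other, and several such probes of a gene were averaged. By this rule 31 of the 34 members were measured, out of 18417 genes measured in all. ZNF98 and ZNF728 were listed only on probes of several genes, and ZNF66 was on no probe of the annotation used, so these 3 were not analysed here as single genes.

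The study held 3 experiments of 24 hours, each with 1 compound array and 1 array of cells given the vehicle DMSO. ET-770 (ecteinascidin-770, from a tunicate) was given at 4.83 nM, ET-770-DR at 1.70 nM and RM (renieramycin M, from a sponge) at 3.10 nM, each dose being the concentration that the labels name as the IC50. ET-770-DR is ET-770 with a pyridinecarbonyl group added on a nitrogen. Since each compound had 1 array at a dose of its own, the values of the compounds stand side by side and no test compares them. The test that was run asked for a response shared by the 3 compounds, with each compound array set against the DMSO array of its own experiment. In that test the compounds served as replicates of each other, so its p-values rest on how far the 3 changes of a gene differ. The method used, limma, draws this spread toward that typical of all genes. For a gene whose changes vary more than is typical, its SE and p-value are therefore smaller than the gene's own spread would give.

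Most proteins of this cluster are KRAB zinc finger proteins. Their zinc fingers bind DNA, and their KRAB domain recruits TRIM28 (KAP1), a scaffold that brings in the histone H3 lysine 9 methyltransferase SETDB1 and HP1 proteins, so that the bound region is silenced. Many such proteins bind transposable elements, and the genes of this cluster arose by repeated tandem duplication during primate evolution, which left paralogs of very similar sequence.

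Levels are given as RMA signals, the authors' normalized array values on a log2 scale, on which a difference of 1 is a 2-fold change. The median signal over all probes was 7.30, 6.65 and 6.77 on the ET-770, ET-770-DR and RM arrays, against 7.28, 6.68 and 6.63 on the DMSO arrays of those experiments. The arrays of the ET-770 experiment thus stood above the other 4 arrays, with both of its arrays about equally high. The glioblastoma and astrocyte markers lay between 4.23 and 13.3 on compound arrays and between 4.07 and 13.6 on DMSO arrays. Among these 12 markers VIM and CD44 were the brightest, GFAP lay between 6.66 and 7.63 on compound arrays and between 6.96 and 7.72 on DMSO arrays, and AQP4 was near the low end of the scale. None of the 5 epithelial, 4 leukocyte and 5 neuron markers measured was called, while 7 of the 12 glioblastoma and astrocyte markers fell, and the part of cell state in the results below was not tested.

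As a group the 19p12 zinc finger genes were higher in compound-treated cells. A gene was called where limma's adjusted p was under 0.05, with adjustment over all 18417 genes. Of the 31 members 23 rose, 0 fell and 8 were not called, and no member was lower at an unadjusted p under 0.05 either. Among all genes 13.1% were called higher and 11.2% were called lower. The median of the mean log2 change was 0.74 over the members and 0.03 over all genes. The changes of the 23 that rose were moderate, from 0.50 for ZNF708 to 1.54 for ZNF682, with standard errors between 0.13 and 0.24. For most of these 23 the SE was below what the gene's own spread would give, and for the rest it was not. The standard deviations of the changes over the 3 experiments were 0.63 for ZNF90, 0.60 for ZNF93, 0.54 for ZNF675 and 0.46 for ZNF14. A fit without the pairing of the arrays called 1 member, ZNF682, and 26 genes in all as higher. Leaving out the ET-770-DR experiment left 17 members called, with ZNF708 at 0.30, against 27 without the RM experiment. The signals are relative to the rest of each array, and in bulk RNA more cells that express a gene and more RNA per cell cannot be told apart.

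**Figure D1:**
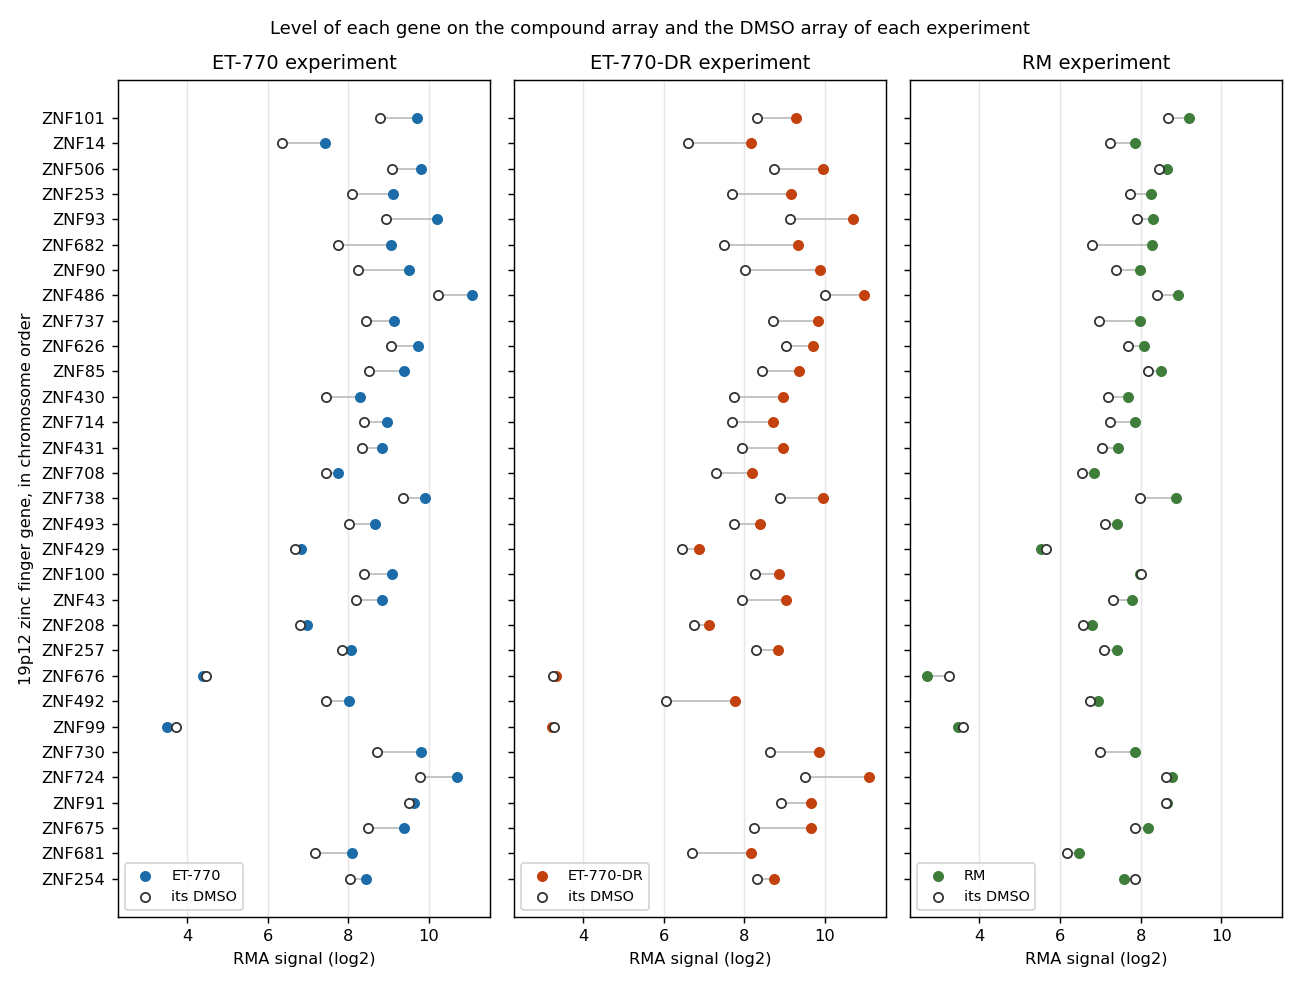
RMA signal (log2, horizontal axis) of the 31 measured genes in chromosome order, with 1 panel for each experiment. Filled points are the compound array, open points its DMSO array, and the line between them is the change: most filled points lie to the right of their open point, while ZNF676 and ZNF99 lie at the dim end on all 6 arrays.

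ZNF682 had the largest change of the cluster. Its signal was 9.06, 9.32 and 8.28 on the ET-770, ET-770-DR and RM arrays, against 7.75, 7.50 and 6.79 on their DMSO arrays. All 3 compound arrays lay above all 3 DMSO arrays, with 2.49, 3.52 and 2.80 times the DMSO level. The mean log2 change was 1.54 (SE 0.14, n = 3 pairs, 95% confidence interval 1.23 to 1.85, limma adjusted p = 6.28e-05).

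ZNF90, a neighbour of ZNF682 in the gene order, came next. It had 9.51, 9.88 and 7.99 with ET-770, ET-770-DR and RM, against 8.24, 8.01 and 7.38 with DMSO. Within each experiment it was higher with the compound, but the RM array lay below the DMSO arrays of the other experiments. Its folds were 2.43, 3.65 and 1.53, and its mean log2 change was 1.25 (SE 0.21, limma adjusted p = 0.00190).

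ZNF93, whose protein is known to repress older LINE-1 elements of the L1PA family, also rose. Its signal was 10.19, 10.69 and 8.31 on the ET-770, ET-770-DR and RM arrays, against 8.95, 9.14 and 7.92 on their DMSO arrays. The RM experiment held both its lowest compound array and its lowest DMSO array, and the groups overlapped across experiments. The mean log2 change was 1.06 (SE 0.20, limma adjusted p = 0.00398), with folds of 2.37, 2.94 and 1.31.

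ZNF91, whose protein is known to repress SVA elements, was not called. It had 9.62, 9.64 and 8.65 with ET-770, ET-770-DR and RM, against 9.51, 8.90 and 8.64 with DMSO. The ET-770-DR array had 1.67 times the level of its DMSO array, while the folds with ET-770 and RM were 1.08 and 1.00. The mean log2 change was 0.29 with a 95% confidence interval of -0.07 to 0.65 (limma adjusted p = 0.255). This interval holds 0 as well as the changes of ZNF626 and ZNF493, at 0.57 and 0.53. For ZNF626 that is a mean of 2 probes, of which the brighter changed by 0.76, above the interval, and the other by 0.38. Without the RM experiment ZNF91 was called, at 0.43, and without the ET-770-DR experiment its mean log2 change was 0.06 (limma adjusted p = 0.866).

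ZNF675, also known as TIZ, encodes a protein that binds TRAF6 and inhibits its signalling. It had 9.38, 9.65 and 8.18 on the ET-770, ET-770-DR and RM arrays, against 8.48, 8.24 and 7.86 on their DMSO arrays. It rose by a mean of 0.88 on the log2 scale (SE 0.19, limma adjusted p = 0.00751), with 1.87, 2.66 and 1.25 times the DMSO level. Its change with RM was the smallest of the 3, as it was for 24 of the 31 members.

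The rest of the 8 largest changes belonged to ZNF14, ZNF730, ZNF253, ZNF737 and ZNF681, zinc finger genes of less studied function. ZNF14 had 7.41, 8.15 and 7.87 with ET-770, ET-770-DR and RM, against 6.35, 6.60 and 7.23 with DMSO. ZNF730 had 9.79, 9.85 and 7.87, against 8.71, 8.63 and 6.99 with DMSO. All compound arrays of ZNF14 lay above all its DMSO arrays, whereas ZNF730 on the RM array was lower than on the DMSO arrays of the other experiments. The mean log2 changes were 1.09 for ZNF14 (SE 0.17, limma adjusted p = 0.00147) and 1.06 for ZNF730 (SE 0.13, limma adjusted p = 0.000337).

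ZNF253 had 9.11, 9.14 and 8.26 with ET-770, ET-770-DR and RM, against 8.09, 7.68 and 7.73 with DMSO, with no overlap of the groups. ZNF737 had 9.13, 9.81 and 7.98, against 8.45, 8.70 and 6.96 with DMSO. ZNF681 had 8.08, 8.15 and 6.48, against 7.17, 6.71 and 6.17 with DMSO. ZNF737 and ZNF681 differed in their profile over the compounds: the RM fold was 2.03 for ZNF737, above its ET-770 fold of 1.60, and 1.24 for ZNF681, below its ET-770 fold of 1.88. Their mean log2 changes were 1.00 for ZNF253, 0.94 for ZNF737 and 0.89 for ZNF681, with limma adjusted p of 0.00239, 0.000836 and 0.00814.

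Altogether 5 members had every compound array above every DMSO array, namely ZNF101, ZNF14, ZNF253, ZNF682 and ZNF85, where 3.62% of all genes did so. Within their own experiments 26 of the 31 members were higher with all 3 compounds, against 29.6% of all genes. Many members overlapped between groups across experiments. For ZNF486 the 3 DMSO arrays spanned 1.82 on the log2 scale, while its mean change was 0.77 (limma adjusted p = 0.00248).

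**Figure D2:**
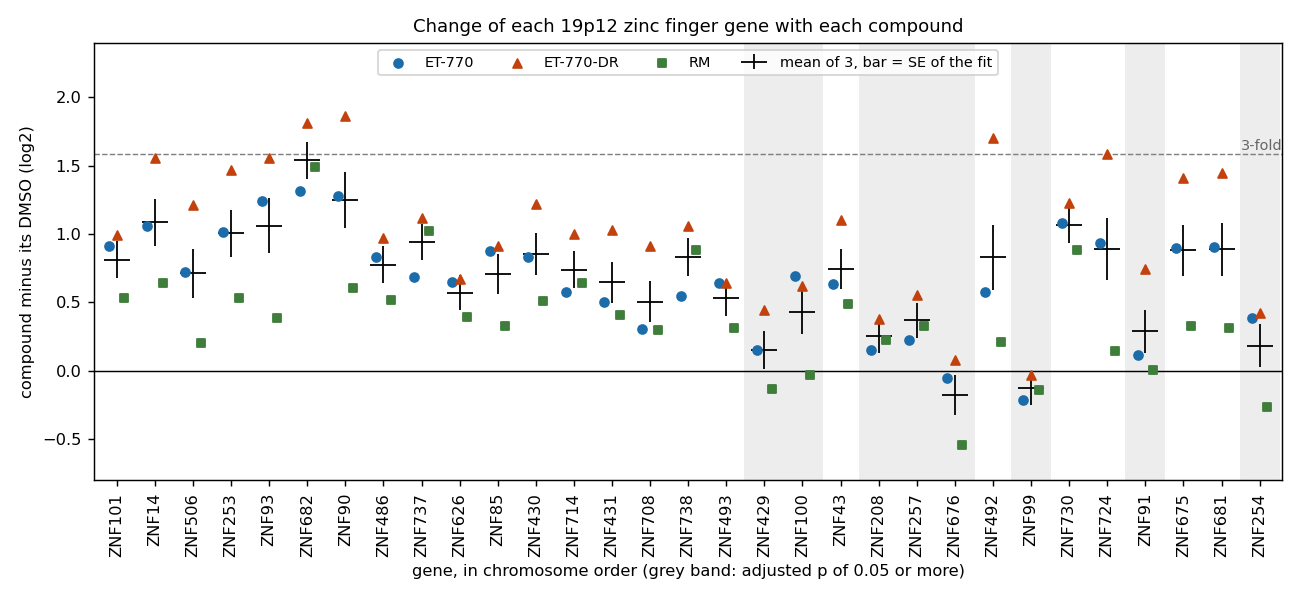
Log2 change (compound minus the DMSO array of the same experiment, vertical axis) of each gene in chromosome order. Coloured points are the 3 compounds, black bars the mean of 3 with the standard error of the fit, grey bands the 8 genes not called, and the dashed line marks 3-fold, which 4 genes passed with ET-770-DR.

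With each compound most members were higher than with DMSO, by amounts that differed between the experiments. The median log2 change over the 31 members was 0.68 with ET-770 at 4.83 nM, 1.03 with ET-770-DR at 1.70 nM and 0.33 with RM at 3.10 nM, where the median over all genes was 0.02, -0.03 and 0.12. Members were higher than with DMSO in 29, 30 and 26 of 31 cases. The change with ET-770-DR was the largest of the 3 for 30 members and that with ET-770 for 1, ZNF100. With 1 array for each compound and unequal doses, a difference between compounds cannot be told apart from one between experiments. Set against the 3 DMSO arrays averaged, in place of its own, the RM median turned to -0.10 and that of ET-770 was 1.07, and the medians of all genes moved to -0.13 and 0.45.

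At the threshold of 3-fold, 4 members were past it with ET-770-DR and 0 with ET-770 or RM, where 0.51%, 0.233% and 0.0434% of all genes were past it. The 4 were ZNF90 (3.65-fold), ZNF682 (3.52-fold), ZNF492 (3.26-fold) and ZNF724 (3.01-fold), and ZNF14 and ZNF93 lay just outside at 2.94-fold each. ZNF492 had 8.02, 7.76 and 6.95 with ET-770, ET-770-DR and RM, against 7.45, 6.06 and 6.74 with DMSO. ZNF724 had 10.70, 11.10 and 8.77, against 9.77, 9.51 and 8.63 with DMSO. Both were thus near their DMSO level in the RM experiment, with log2 changes of 0.21 and 0.14, and both lost the call of the shared response when the ET-770-DR experiment was left out. Their mean log2 changes were 0.83 for ZNF492 (SE 0.24, limma adjusted p = 0.0309) and 0.89 for ZNF724 (SE 0.23, limma adjusted p = 0.0179), against 0.39 and 0.54 without the ET-770-DR experiment. The standard deviations of their changes over the 3 experiments were 0.78 and 0.72, so these SEs are smaller than their own spread would give.

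Over 2-fold were 17 members with ET-770-DR, 6 with ET-770 and 2 with RM, where 3.84%, 2.01% and 0.668% of all genes were. Over 1.5-fold were 25, 19 and 7 members, where 12.2%, 8.32% and 6.21% of all genes were. No member was past the lower threshold, the inverse of 3-fold, with ET-770, ET-770-DR or RM, where 2.15%, 2.12% and 1.36% of all genes were. The order of the members was alike between compounds: across the 31 members the changes with ET-770 and ET-770-DR had a Pearson r of 0.86 (Spearman correlation 0.80), those with ET-770 and RM 0.66 (Spearman 0.58), and those with ET-770-DR and RM 0.63 (Spearman 0.55). Across all 18417 genes these Pearson r were 0.87, 0.76 and 0.65, close to those of the members. Genes of 1 array share its RNA and its hybridisation and are not independent replicates.

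The RM change relative to the ET-770-DR change varied among the members that rose. It was 0.92 of the ET-770-DR log2 change for ZNF737, 0.83 for ZNF738, 0.82 for ZNF682 and 0.72 for ZNF730. At the other end it was 0.09 for ZNF724, 0.12 for ZNF492 and 0.16 for ZNF506. ZNF682 and ZNF724 show this contrast: both were past 3-fold with ET-770-DR, with log2 changes of 1.81 and 1.59, while their log2 changes with RM were 1.49 and 0.14.

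The 8 members not called were ZNF91, ZNF99, ZNF100, ZNF208, ZNF254, ZNF257, ZNF429 and ZNF676, with mean log2 changes between -0.18 and 0.43. Closest to the threshold were ZNF257 at 0.37 (limma adjusted p = 0.0636) and ZNF100 at 0.43 (limma adjusted p = 0.0843). ZNF99 and ZNF676 were dim on every array, at the 1.29 and 1.63 percentile of all genes by mean signal.

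ZNF99 had 3.50, 3.23 and 3.46 with ET-770, ET-770-DR and RM, against 3.72, 3.26 and 3.59 with DMSO. ZNF676, a gene near variants linked to telomere length, had 4.40, 3.31 and 2.70, against 4.45, 3.24 and 3.25 with DMSO. ZNF429 was brighter, with 6.83, 6.88 and 5.52, against 6.68, 6.44 and 5.65 with DMSO. The groups overlapped for all 3 genes, and their mean log2 changes were -0.13, -0.18 and 0.15 with limma adjusted p of 0.560, 0.497 and 0.553.

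ZNF208, another gene near variants linked to telomere length, was read by 3 probes that did not measure the same level. A dim probe had 2.61, 2.62 and 3.98 with ET-770, ET-770-DR and RM, against 2.72, 2.54 and 3.75 with DMSO, and changed by a mean of 0.06. A bright one had 8.98, 9.23 and 7.92, against 8.71, 8.72 and 7.69 with DMSO, and changed by 0.34, and the remaining one was as bright and changed by 0.35. Averaged over its probes, ZNF208 had 6.96, 7.13 and 6.80, against 6.81, 6.75 and 6.58 with DMSO, with a mean log2 change of 0.25 (SE 0.12, limma adjusted p = 0.190). ZNF257 likewise had a dim probe, at 3.38 to 5.27 over the 6 arrays, and a bright one, at 10.80 to 12.39, whose mean changes were 0.34 and 0.40.

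Of the 31 measured members 27 were read by 1 probe, and 2 further probes that list several genes named 10 members between them. One of these lists ZNF730, ZNF728, ZNF676, ZNF430, ZNF208, ZNF99, ZNF85 and ZNF43, and had signals of 12.7 to 13.3 over the 6 arrays. The paralogs are similar enough that a probe of 1 symbol may also bind transcripts of another member. How much of each signal came from a paralog was not tested, so the values of single members are less certain in this respect.

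The members were also followed along the chromosome. The first 11 measured genes, ZNF101 to ZNF85, all rose, with a median of the mean log2 changes of 0.94. Of the next 10, ZNF430 to ZNF208, 7 rose with a median of 0.59, and of the last 10, ZNF257 to ZNF254, 5 rose with a median of 0.60. These stretches are equal parts of the gene order and mark no known boundary.

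Genes next to the members in gene order were looked at in the same way. Their distance in bases was not limited, so some of those outside the cluster may lie far from it. Of the 3 measured genes that lie between members without being on the list, ZNF726 rose by 0.96 on the log2 scale (limma adjusted p = 0.00216), ZNF729 changed by 0.23 (limma adjusted p = 0.272) and the ribosomal protein gene paralog RPSA2 by 0.37 (limma adjusted p = 0.139). Of 19 protein-coding genes measured in the 10 places on either side of the cluster, 2 rose and 1 fell (10.5% and 5.26%, where 13.1% and 11.2% of all genes did), with a median of 0.03, equal to that of all genes. The 2 were GMIP at 0.67 (limma adjusted p = 0.00296), and CCNE1, which encodes a cyclin of S-phase entry, at 0.95 (limma adjusted p = 0.00975). The 1 that fell was URI1, which encodes a prefoldin-like protein, at -0.58 (limma adjusted p = 0.0100).

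ZNF genes that are not on the list rose as well. Of 190 other ZNF genes on chromosome 19, with ZNF726 and ZNF729 among them, 116 rose and 0 fell by limma, with 1 lower at an unadjusted p under 0.05 and a median change of 0.56. Of 218 ZNF genes on other chromosomes, 87 rose and 14 fell, with a median of 0.34. The 19p12 members thus had a rise in 74.2% of genes, other ZNF genes of chromosome 19 in 61.1% and ZNF genes elsewhere in 39.9%. No test compared these lists. Every compound array lay above every DMSO array for 5 of the 31 members, 70 of the 190 other ZNF genes of chromosome 19 and 37 of the 218 ZNF genes elsewhere.

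**Figure D3:**
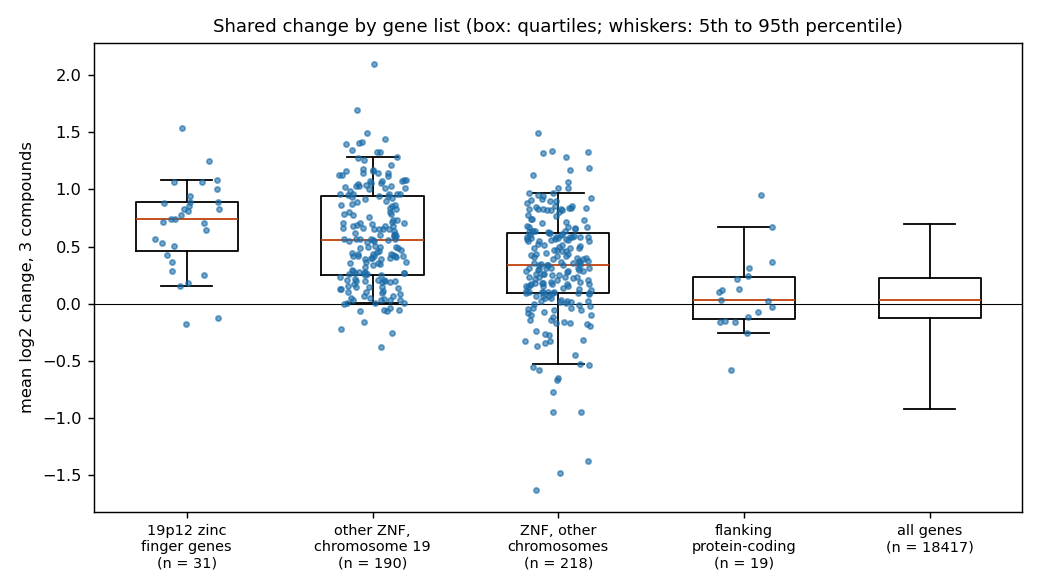
Mean log2 change over the 3 compounds (vertical axis) for the 31 members, the 190 other ZNF genes on chromosome 19, 218 ZNF genes on other chromosomes, 19 flanking protein-coding genes and all 18417 genes. Points are genes, boxes the quartiles and whiskers the 5th to 95th percentile: the medians are 0.74, 0.56, 0.34, 0.03 and 0.03.

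The genes through which KRAB proteins act were called about as often as genes at large. Of 28 measured genes for TRIM28, HP1, the NuRD and HUSH complexes and H3K9 or DNA methylation, 5 rose, 3 fell and 20 were not called, or 17.9% higher and 10.7% lower, where 13.1% and 11.2% of all genes were. TRIM28, the scaffold itself, had 12.25, 11.44 and 11.97 with ET-770, ET-770-DR and RM, against 11.63, 10.74 and 11.36 with DMSO. It rose by a similar amount in each experiment, 1.54, 1.63 and 1.52 times, with a mean log2 change of 0.65 (SE 0.12, limma adjusted p = 0.00362). SETDB1, which writes the silencing mark on H3 lysine 9, had 8.85, 8.43 and 8.25, against 8.82, 8.17 and 8.59 with DMSO, and a mean log2 change of -0.01 (95% confidence interval -0.33 to 0.31, limma adjusted p = 0.981).

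EHMT1, a methyltransferase of the same lysine that adds its lower methylation states, had the largest change of the list. It had 7.87, 7.02 and 6.87 with ET-770, ET-770-DR and RM, against 8.87, 7.64 and 8.20 with DMSO, which was 0.503, 0.650 and 0.398 of the DMSO level. Its mean log2 change was -0.98 (SE 0.15, limma adjusted p = 0.00137). SUV39H1, which methylates the same lysine in constitutive heterochromatin, had 9.94, 8.78 and 9.06, against 9.20, 8.001 and 8.53 with DMSO, a mean log2 change of 0.68 (SE 0.12, limma adjusted p = 0.00322). The other calls were SUV39H2, the NuRD subunit MTA2 and the HUSH subunit MPHOSPH8 upward, and the HUSH subunit PPHLN1 and the DNA methyltransferase DNMT3A downward.

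The DMSO arrays themselves differed in the level of the cluster. The median signal of the 31 members was 8.24, 8.01 and 7.23 on the DMSO arrays of the ET-770, ET-770-DR and RM experiments. As deposited, 30 of 31 members were lower on the DMSO array of RM than on that of ET-770, with a median difference of -0.89, but the median over all genes also differed, by -0.66. Against the DMSO array of ET-770-DR, the DMSO array of RM was lower for 25 of 31 members with a median difference of -0.57, where that of all genes was -0.01. After quantile normalization, which gives every array the same distribution, the member medians were 7.87, 8.34 and 7.43. The DMSO array of RM thus stayed the lowest, at -0.32 against that of ET-770 and -0.67 against that of ET-770-DR, while the order of the other 2 was turned round. The cluster had its lowest vehicle level and its smallest compound change in the RM experiment, and whether these are related was not tested.

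**Figure D4:**
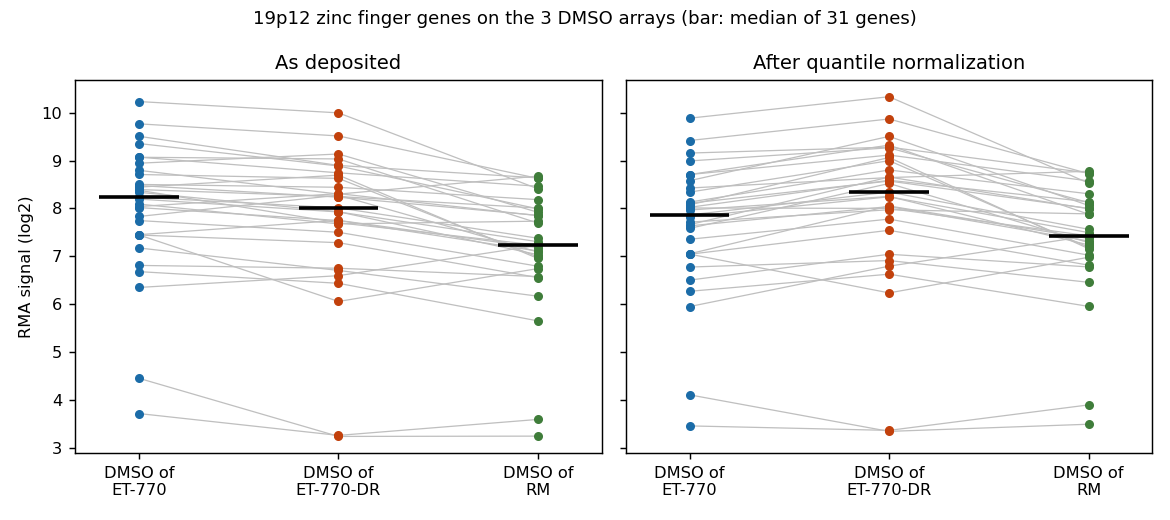
RMA signal (log2, vertical axis) of the 31 members on the DMSO arrays of the 3 experiments, as deposited and after quantile normalization. Points are genes, grey lines join a gene over the arrays, and black bars are medians, which are lowest on the DMSO array of RM in both panels.

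Brighter members tended to have larger changes, less clearly so once the dim genes were set aside. Across the 31 members mean signal and mean change had a Pearson r of 0.60 (Spearman correlation 0.35), and across the 29 with a mean signal over 5 an r of 0.26 (Spearman 0.21). Members of like signal could still differ, as ZNF91 and ZNF738 did, with a mean signal of 9.16 each and mean log2 changes of 0.29 and 0.83.

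The members also share promoter sequence. The RefSeq table used here (build GRCh38.p14) gave windows from 250 bases before to 50 bases after an annotated start for 27 of the 34 members, as 28 windows since ZNF682 has 2, and 26 of these members were measured. Motifs were searched on both strands. CCAAT, the box bound by NF-Y, was in 27 of the 28 windows (96.4%), where 34.6% of all 35116 windows, 43.3% of windows of other ZNF genes on chromosome 19 and 40.3% of windows of ZNF genes elsewhere held it. In 25 of the 27 genes it began between 100 and 40 bases before the start. CCGGAAG, a site of ETS factors, was in 20 of 28 windows (71.4%), where 10.3% of all windows held it. Windows of other ZNF genes on chromosome 19 held it in 36% of cases, and those of ZNF genes elsewhere in 31%. GGGCGG, the GC box, was in 71.4% against 45.0% of all windows, with 66.1% and 58.1% in those ZNF groups. TATAAA, the TATA box, was in 10.7% against 11.5% of all windows, with 1.72% and 5.81% in those ZNF groups.

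The 12-base runs shared by most members were taken from the windows without use of the array values. They were picked for being in most members, so their high share among members follows from that choice. All windows include those of the members. CTGTCACTCAGG was in 17 of 28 member windows (60.7%) and in 0.108% of all windows, with a median first base at -125, counted from the base before the start as -1. GTCCAATCAGGC, which contains CCAAT, was also in 17 of 28 and in 0.0911% of all windows. The 150 bases before the start are printed for the 5 largest changes with a window and for the 4 smallest, to show this shared layout, and for ZNF682 the window with more CCAAT matches was taken. Each reads 5′ to 3′ on the gene's strand, and capitals mark CCAAT on either strand, CCGGAAG on either strand and these 2 runs.
ZNF682 (chr19:20039506-20039655, minus strand): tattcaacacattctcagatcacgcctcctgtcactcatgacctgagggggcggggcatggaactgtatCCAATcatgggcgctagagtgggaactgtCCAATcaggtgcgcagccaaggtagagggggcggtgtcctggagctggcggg
ZNF90 (chr19:20077850-20077999, plus strand): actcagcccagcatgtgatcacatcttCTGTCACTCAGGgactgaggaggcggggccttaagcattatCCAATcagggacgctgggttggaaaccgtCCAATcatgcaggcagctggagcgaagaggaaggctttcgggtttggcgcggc
ZNF14 (chr19:19733113-19733262, minus strand): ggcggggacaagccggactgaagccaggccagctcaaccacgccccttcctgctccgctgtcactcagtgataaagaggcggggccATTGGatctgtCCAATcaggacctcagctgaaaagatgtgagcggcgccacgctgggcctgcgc
ZNF730 (chr19:23116875-23117024, plus strand): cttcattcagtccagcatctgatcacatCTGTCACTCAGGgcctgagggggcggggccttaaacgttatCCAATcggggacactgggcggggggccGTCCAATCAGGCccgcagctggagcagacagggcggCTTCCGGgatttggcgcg
ZNF93 (chr19:19900796-19900945, plus strand): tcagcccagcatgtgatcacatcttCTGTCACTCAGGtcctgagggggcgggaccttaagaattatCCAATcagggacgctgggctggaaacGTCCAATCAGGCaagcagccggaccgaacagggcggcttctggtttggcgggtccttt
ZNF429 (chr19:21505452-21505601, plus strand): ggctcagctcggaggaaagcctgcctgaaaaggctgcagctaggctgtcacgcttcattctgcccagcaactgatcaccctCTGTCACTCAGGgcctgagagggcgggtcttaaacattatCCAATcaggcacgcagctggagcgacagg
ZNF254 (chr19:24087037-24087186, plus strand): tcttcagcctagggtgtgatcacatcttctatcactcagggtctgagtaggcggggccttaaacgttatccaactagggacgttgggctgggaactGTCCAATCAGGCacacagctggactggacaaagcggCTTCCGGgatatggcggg
ZNF208 (chr19:22010944-22011093, minus strand): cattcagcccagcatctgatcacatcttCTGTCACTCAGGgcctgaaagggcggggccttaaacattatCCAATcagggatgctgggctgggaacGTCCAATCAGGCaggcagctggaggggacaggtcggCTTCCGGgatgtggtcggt
ZNF91 (chr19:23395472-23395621, minus strand): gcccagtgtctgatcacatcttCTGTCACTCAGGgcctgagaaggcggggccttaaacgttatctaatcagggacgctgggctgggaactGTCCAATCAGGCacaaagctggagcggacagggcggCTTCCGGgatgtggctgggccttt

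In ZNF682, ZNF90, ZNF730, ZNF93 and ZNF208 the letters CCAAT occur at a pair of places, the downstream one beginning 52 to 56 bases before the start and the upstream one 28 or 29 bases before that. In ZNF14 the upstream match is on the other strand and closer. ZNF91 and ZNF254 hold the downstream match, but at the place of the upstream one the letters CCAAT are not found, and ZNF429 holds 1 match in all.

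The number of CCAAT matches was therefore set beside the changes, a split chosen after both the windows and the changes were seen, so no test is given. In the 250 bases before the start, 18 measured members had 2 or 3 matches and 8 had 1. Of the 18, 17 rose, ZNF208 being the exception, with a median of the mean log2 changes of 0.87 and a range of 0.25 to 1.54. Of the 8 with 1 match, ZNF101, ZNF492 and ZNF708 rose, with a median of 0.40 and a range of 0.15 to 0.83. The ranges overlapped. A pair spaced 28 or 29 bases apart was found in 16 members, of which 15 rose, where 20 of all 26 measured members with a window rose. Such pairs were not counted in other genes, so this count has no share over all genes beside it.

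Among other genes the number of matches went with smaller differences. Of other ZNF genes on chromosome 19 with a window, 51 of 90 rose with 0 matches, 37 of 53 with 1 and 17 of 26 with 2 or more, with medians of 0.49, 0.71 and 0.52. Of ZNF genes on other chromosomes the shares that rose were 39.6%, 44.4% and 51.6%, and of all 14239 genes with a window 12.5%, 13.9% and 16.2%. The ETS motif and the first run gave smaller differences among the members: 14 of 19 measured members with the ETS motif rose and 6 of 7 without it, and 13 of 17 with CTGTCACTCAGG rose and 7 of 9 without it. For the second run, 12 of 16 measured members with it rose and 8 of 10 without it, so it did not separate the members. For the GC box these were 15 of 19 and 5 of 7, and for the TATA box 2 of 3 and 18 of 23. A match is a description of the letters and does not show that a factor binds there.

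**Figure D5:**
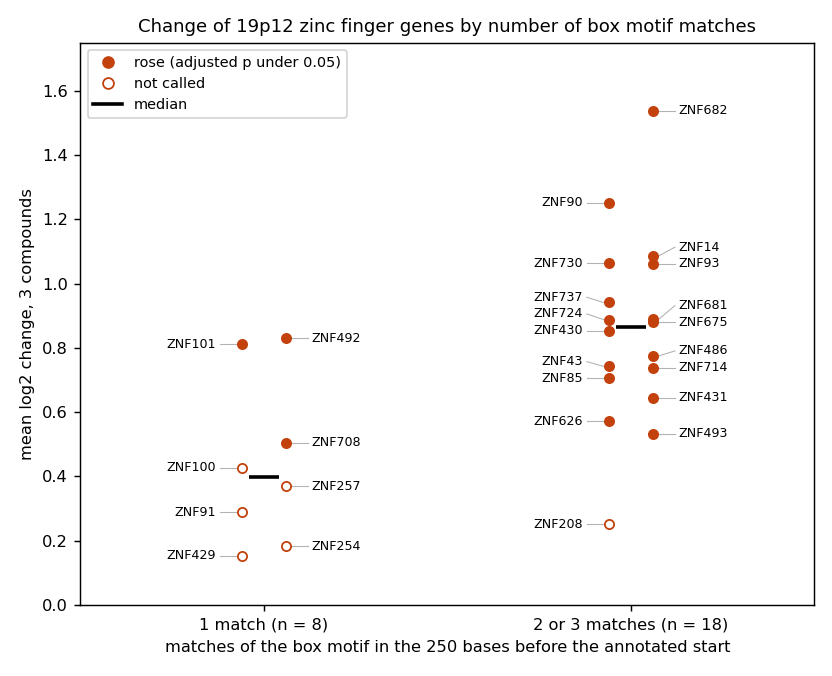
Mean log2 change over the 3 compounds (vertical axis) of the 26 measured members with a promoter window, by the number of CCAAT matches in the 250 bases before the annotated start. Filled points rose, open points were not called, and bars are medians: 17 of 18 genes with 2 or 3 matches and 3 of 8 genes with 1 match rose.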

How the data were processed

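U373MG glioblastoma cells were profiled on 6 Human Gene 1.0 ST arrays, 1 for each compound and 1 for its DMSO control. The authors computed log2 signals from the scanned arrays by RMA in Affymetrix Expression Console before deposit, and versions are not given in the sources used here. The deposited table held 33297 probes, of which 19460 had exactly 1 gene symbol, 1754 several and 12083 none. Probes with 1 symbol were averaged per gene, which gave 18417 genes, and 18392 of the gene names were found in the RefSeq gene table. The array files name no genome build, so RefSeq (GRCh38.p14) served only for names, gene order and promoter windows.

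The shared response was estimated by limma 3.58.1 under R 4.3.3 (lmFit and eBayes without trend, compound against DMSO with the experiment as a block, two-sided, Benjamini-Hochberg adjustment over all genes, threshold 0.05). The pairing comes from the labels, which name the compound each DMSO array belongs to. Deviations from the group means correlated at 0.69 to 0.83 between the arrays of 1 experiment and at most at 0.24 between arrays of different experiments. The deviations of a group sum to 0 for each gene, so a high correlation within experiments forces those between experiments down. That contrast is thus no independent check of the pairing. Changes with single compounds are differences between 2 arrays, read at the study's thresholds of 3-fold and its inverse, with no test. The fit was tested on simulated data. Depth has no meaning for arrays, and their number limits the precision. Values on all arrays are given for the 8 largest called changes, members past 3-fold with any compound, the 3 smallest changes and ZNF91, ZNF93, ZNF675, ZNF208 and ZNF676, and of the KRAB genes for the 3 largest changes, TRIM28 and SETDB1. The members, the gene lists and this rule were chosen with earlier results of these data known. The alternatives tried were the block, quantile normalization, the brightest probe, a limit of 5 on the mean signal, a trend, probes of several symbols, leaving out each experiment, the mean of the 3 DMSO arrays as control, and thresholds of 2-fold and 1.5-fold.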

Additional observations from a re-analysis of the deposited data

Results flagged for a closer look

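For 4 members the compounds changed the signal in opposite directions, a difference that was not tested since each compound had 1 array. The log2 changes with ET-770, ET-770-DR and RM were 0.15, 0.44 and -0.13 for ZNF429, 0.69, 0.62 and -0.029 for ZNF100, 0.39, 0.43 and -0.27 for ZNF254, and -0.057, 0.075 and -0.55 for the dim ZNF676. None of these 4 was called in the shared response, and in each the RM array was below its DMSO array.

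The probes of several genes, left out of the gene values, carried signal as well. The probe listing ZNF730, ZNF728, ZNF676, ZNF430, ZNF208, ZNF99, ZNF85 and ZNF43 changed by a mean of 0.23 on the log2 scale, and the probe listing ZNF98, ZNF492 and ZNF85 by 0.36, with 0.17, 0.66 and 0.25 with ET-770, ET-770-DR and RM.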

How the results depend on the processing

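The count of 23 members that rose was 1 without the replicate block (26 genes in all then rose and 369 fell), 21 after quantile normalization, 24 with the brightest probe, 23 of 29 with a mean signal over 5, 23 with a trend, 23 of 33 with probes of several symbols, and 17 to 27 with 1 experiment left out. The count that fell was 0 under each of these. The median change of 0.74 lay between 0.56 and 0.89 with 1 experiment left out. The number of all genes that rose also moved, from 2406 in the main fit. It was 1200 without the ET-770 experiment, 1581 without the ET-770-DR experiment and 3506 without the RM experiment. Without the ET-770-DR experiment ZNF506, ZNF431, ZNF708, ZNF493, ZNF492 and ZNF724 were no longer called, with ZNF506 at 0.46 and ZNF708 at 0.30, without the ET-770 experiment ZNF626, ZNF85, ZNF708 and ZNF493, and after quantile normalization ZNF708 and ZNF492. Without the RM experiment ZNF100, ZNF257, ZNF91 and ZNF254 were called. ZNF676 turned to 0.025 and ZNF99 to 0.048 with probes of several symbols. With 1 experiment left out ZNF676 ranged from -0.30 to 0.0088 and SETDB1 from -0.15 to 0.15, both positive without the RM experiment. None of these reversed values was called. The cause was not tested.

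Of the KRAB genes 5 rose and 3 fell, against 0 and 0 without the replicate block, and 2 to 8 and 1 to 3 with 1 experiment left out. The 2 that rose were found without the ET-770 experiment, where 1200 of all genes rose. The 8 were found without the RM experiment, where 3506 of all genes rose. With ET-770 0 members were over 3-fold, 3 against the 3 DMSO arrays averaged, 6 over 2-fold and 19 over 1.5-fold. With ET-770-DR these were 4 over 3-fold, 17 over 2-fold and 25 over 1.5-fold, and with RM 0, 2 and 7. Against the averaged DMSO arrays the median member change was 1.07 with ET-770 and -0.10 with RM, and that control also moved the median of all genes to 0.45 and -0.13. Quantile normalization, chosen for the vehicle arrays after seeing the data, moved the difference of the DMSO arrays of RM and ET-770 to -0.32, and turned that of ET-770-DR and ET-770 to 0.45, against -0.24 as deposited.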
